A study of Mus with 9 samples.

Results

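The genes of glucose breakdown, lactate and pyruvate handling were followed by RNA sequencing through bone marrow carrying the AML1-ETO fusion with an empty vector, cyclin D2 or a cyclin D2 mutant. The 37 genes were chosen by name: glucose and lactate transporters, the enzymes of glycolysis and their isozymes, the PFKFB enzymes that set the activator fructose 2,6-bisphosphate, lactate dehydrogenases, the pyruvate dehydrogenase complex and its kinases, and 4 enzymes of the pentose phosphate pathway. They correspond to 38 of the 54532 gene entries in the count table, because Aldoa is listed under 2 identifiers. Of the 38 entries, 36 were among the 15660 that passed the filter on low counts and were tested. Ldhb and Pdk4 did not pass it.

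The 9 libraries fall into 3 groups of 3. Donor cells came from the liver of fetuses at embryonic day 12.5 from mice with a conditional knock-in of AML1-ETO, tagged with mCherry, which the submitters describe as a myeloproliferative, pre-leukaemic model. They were infected with the retroviral vector MSCV-IRES-EGFP, which was empty in the group labelled Vec, carried wild-type CCND2 in CCND2wt and carried CCND2 with the substitution Thr280Ala in CCND2mut. Of the infected cells, 100000 that were positive for mCherry and GFP were given with supportive cells to lethally irradiated C57BL/6 recipients, and marrow of the recipients was sequenced. All 3 groups thus share the AML1-ETO knock-in, the EGFP vector, irradiated hosts and supportive cells. The sources used here do not give what drives the conditional allele, how old the recipients were or when they were sampled.

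Glycolysis splits glucose into pyruvate in the cytosol. Hexokinase traps glucose in the cell, phosphofructokinase commits it to breakdown, and pyruvate kinase makes pyruvate. Lactate dehydrogenase turns pyruvate into lactate, which leaves through monocarboxylate transporters, while the pyruvate dehydrogenase complex feeds it into mitochondria unless pyruvate dehydrogenase kinases switch that complex off. The pentose phosphate pathway branches off at glucose 6-phosphate and yields NADPH and ribose. In blood cells, isozyme usage changes with lineage and maturation, and hexokinase 3 is known as an isozyme of myeloid cells.

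Total counts ran from 15043755 to 17593634 per library, so depth hardly differed between groups. Levels are read counts scaled by library size (CPM), always in the order Vec 1, 2 and 4, CCND2wt 2, 3 and 4, and CCND2mut 1, 2 and 3. Changes given with a standard error (SE) or a 95% interval are log2 fold changes. Nothing in the labels ties each library to its own animal, so a p-value here reflects only the scatter among the libraries, which may be technical. The mouse gene Ccnd2 went against the labels, with 76.2, 79.0 and 86.2 CPM in Vec, 7.30, 9.29 and 11.1 CPM in CCND2wt and 12.6, 58.2 and 51.1 CPM in CCND2mut. The species of the transgene is not given, so every direction here is between libraries as they are labelled. The 3 CCND2wt libraries were closer to each other than those of the other groups, with a chi-square per gene of 6.998 to 17.7 against 53.3 to 148. Of 9 lists of 12 markers for blood lineages and cell division, at most 2 markers of a list were at 0 in all libraries of a group, and Gp1bb of platelets was at 0 in all 9. Vec 1 stood apart with 1.51% haemoglobin counts and a summed level of 12 neutrophil markers of 8715 CPM, against 806 and 853 CPM in the other Vec libraries. The sum of 12 monocyte and macrophage markers was 58.3 to 365 CPM in Vec, 46.7 to 48.7 CPM in CCND2wt and 1093 to 4301 CPM in CCND2mut, where Ly6c2 made up most of it. In marrow as a whole, fewer cells of a type and less RNA per cell cannot be told apart.

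The libraries labelled CCND2mut devoted the largest share of their counts to these genes. The 38 entries together held 0.578%, 0.452% and 0.504% of all counts in Vec, 0.445%, 0.450% and 0.451% in CCND2wt and 1.13%, 1.30% and 1.42% in CCND2mut. All 3 CCND2mut libraries lay above every library of the other groups. In edgeR's quasi-likelihood test, 26 of the 36 tested members passed the threshold of 0.05 in CCND2mut against Vec, 21 of them higher and 5 lower. Over all tested genes 51.8% passed, 24.9% higher and 26.9% lower. The median log2 fold change was 1.02 over the 36 members and -0.03 over all genes. Against CCND2wt, 28 members passed, 23 higher and 5 lower, where 47.0% of all genes passed, 23.2% higher and 23.8% lower, and the medians were 1.36 and 0.02. With the CCND2wt libraries summed to 1 sample, the medians against them were 1.31 over the members and 0.02 over all genes. Slc2a3, Slc16a3, Pfkfb3, Pfkfb4, Gapdh, Eno3, Ldha, Pdha1, Dlat, Pdk3, Tkt and G6pdx were then not called (adjusted p = 0.0535 to 0.355). The 5 lower members were the same in both comparisons: Pfkm, Pfkfb2, Pdk1, Pdk2 and Pdk3. Both comparisons share the CCND2mut libraries.

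**Figure D1:**
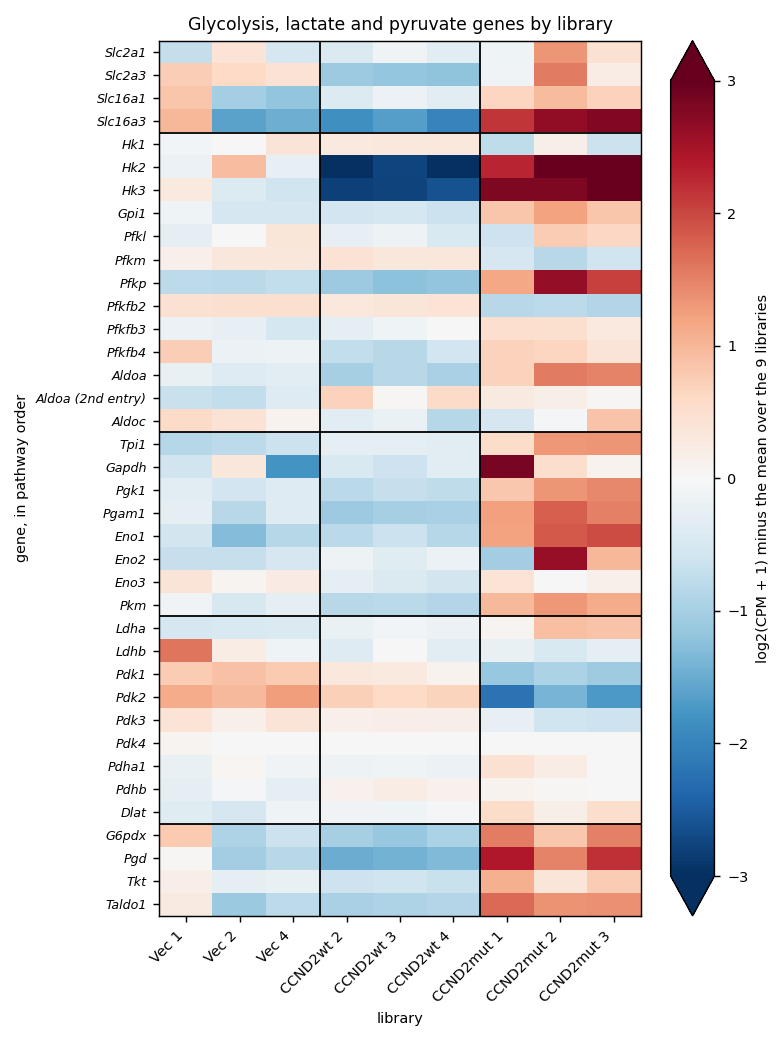
Level of each gene (rows, in pathway order, with lines between the 5 groups of steps) in each of the 9 libraries (columns), as log2(CPM + 1) minus the gene's mean over the libraries, on a colour scale limited at 3 either way. The 3 CCND2mut columns are red for most genes and blue for Pfkm, Pfkfb2 and the Pdk genes, while Hk2 and Hk3 are darkest blue in CCND2wt.

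In the marrow labelled CCND2wt fewer members passed against Vec. Of the 36 members, 9 passed, 2 higher (Pdhb and the second Aldoa entry) and 7 lower (Slc2a3, Hk2, Hk3, Pfkfb4, Eno3, Pkm and Pdk1). Over all genes 18.8% passed, 9.71% higher and 9.05% lower, and the medians were -0.33 for the members and -0.04 for all genes. The groups did not overlap for 25 of the 36 members, against 48.3% of all genes. For 19 of these 25 every CCND2wt library was below every Vec library, as it was for 3710 of all 15660 tested genes. These calls rest on treating the closely matched CCND2wt libraries as 3 samples. When they were summed to 1 sample, the log2 fold change against Vec was -3.54 for Hk2 and -2.56 for Hk3. A fit with 1 CCND2wt sample holds no spread within that group and cannot decide which calls would stand. Leaving out CCND2wt 2, 3 or 4 left 3, 4 and 2 of the calls, where 6.38%, 7.27% and 6.21% of all genes passed. Hk2 and Hk3 were among the remaining calls each time, Pdk1 without CCND2wt 2 or 3 and the second Aldoa entry without CCND2wt 3. Pkm, Pdhb and Eno3 did not pass without Vec 1 or Vec 4 either (adjusted p = 0.061 to 0.103). The single-gene values of this comparison below carry these limits.

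By step, the share of members that rose in CCND2mut was highest in lower glycolysis and the pentose phosphate branch. Against Vec, 7 of 8 entries of lower glycolysis and 4 of 4 of the pentose phosphate pathway rose and 0 fell. Over all tested genes 24.9% were higher and 26.9% lower. The 7 include Gapdh and Eno2, whose groups overlapped. Gapdh did not pass without CCND2mut 1, nor Eno2 without CCND2mut 2. The groups were apart for 5 of the 8 entries of lower glycolysis. In upper glycolysis 7 of 13 rose and 2 fell, among the transporters 1 of 4 rose, and among the lactate and pyruvate genes 2 of 7 rose and 3 fell. The groups did not overlap for 25 of 36 members against Vec, where 56.7% of all genes did not overlap, and for 31 of 36 against CCND2wt, where the share was 63.1%.

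**Figure D2:**
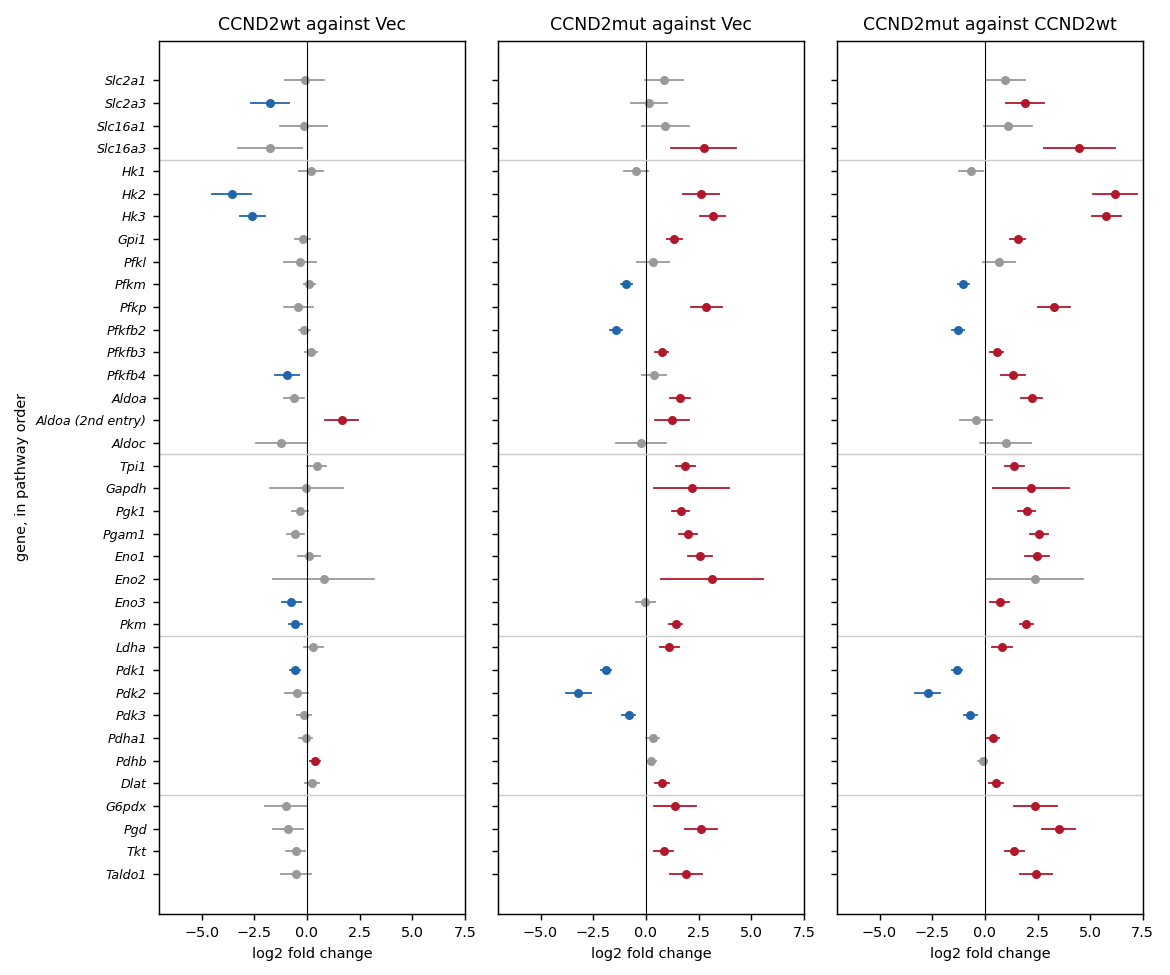
Log2 fold change (x axis) of the 36 tested entries (y axis, in pathway order) in the 3 comparisons, with 95% intervals from the edgeR fit. Red points passed higher, blue points passed lower and grey points did not pass at an adjusted p of 0.05, and red dominates the panels with CCND2mut except at Pfkm, Pfkfb2, Pdk1, Pdk2 and Pdk3.

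Glucose enters through SLC2A1 and SLC2A3 (GLUT1 and GLUT3). Slc2a3 (ENSMUSG00000003153, chr6:122727809-122801640 in mm10) stood at 529.9, 487 and 432 CPM in Vec, 149.6, 143 and 137 CPM in CCND2wt and 298, 939 and 374 CPM in CCND2mut. All CCND2wt libraries were lower than all others, while CCND2mut 2 was well above the other CCND2mut libraries, which both lay under the Vec range. Slc2a3 fell by 1.75 (SE 0.39, adjusted p = 0.0179) on the log2 scale in CCND2wt against Vec in edgeR, a 3.37-fold difference, and was 3.74 times higher in CCND2mut than in CCND2wt. The latter was 2.29 times without CCND2mut 2 (adjusted p = 0.000581), and was not called with CCND2wt summed to 1 sample (adjusted p = 0.126). Against Vec the CCND2mut difference was 0.15 (95% interval -0.71 to 1.01, adjusted p = 0.753), and without CCND2mut 2 it turned to -0.53 and passed (adjusted p = 0.0191). Slc2a1 ranged from 45.5 to 101.6 CPM in Vec, 55.9 to 69.8 CPM in CCND2wt and 69.5 to 189.9 CPM in CCND2mut. It passed in 0 of the 3 comparisons, with 0.86 (95% interval -0.06 to 1.78, adjusted p = 0.104) in CCND2mut against Vec. That value passed without CCND2mut 1 (1.14, adjusted p = 0.0376) and without Vec 2 (1.29, adjusted p = 0.0349). DESeq2 called Slc2a1 higher in CCND2mut than in CCND2wt (0.96, adjusted p = 0.0443).

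Lactate leaves mainly through SLC16A1 (MCT1) and SLC16A3 (MCT4), the latter known as the exporter of highly glycolytic cells. Slc16a3 (ENSMUSG00000025161, chr11:120948480-120960868) was at 91.7, 14.4 and 15.8 CPM in Vec, 12.0, 13.7 and 10.5 CPM in CCND2wt and 205, 291 and 319 CPM in CCND2mut. The CCND2mut libraries were all higher than the rest, and Vec 1 was several times above the other Vec libraries. Slc16a3 rose in CCND2mut by 2.74 (SE 0.68, adjusted p = 0.01) against Vec and by 4.49 (SE 0.74, adjusted p = 0.00153) against CCND2wt, or 6.67-fold and 22.4-fold. Without Vec 1 the difference from Vec was 4.17 (adjusted p = 2.68e-05), or 17.95-fold. With all libraries it was not called when no filter on low counts was applied (2.74, adjusted p = 0.0505), nor was the difference from CCND2wt with CCND2wt summed to 1 sample (4.46, adjusted p = 0.0844). Vec 1 is also the Vec library with the highest neutrophil, erythroid and immunoglobulin counts, whose part in its Slc16a3 level was not tested. Slc16a1 followed the same split within Vec, with 68.6 CPM in Vec 1 against 18.5 and 16.3 CPM in Vec 2 and 4. It ranged from 28.4 to 33.5 CPM in CCND2wt and from 60.7 to 74.3 CPM in CCND2mut. It passed in 0 comparisons with all libraries in edgeR, while limma-voom called it in CCND2mut against Vec (1.23, adjusted p = 0.0418), and without Vec 1 it was higher in both: by 0.86 in CCND2wt (adjusted p = 0.00905) and by 1.92 in CCND2mut (adjusted p = 8.69e-05). CCND2mut was then also higher than CCND2wt, by 1.06 (adjusted p = 0.000476). As a share of both transporters per length, Slc16a3 made up 45.6% ± 6.70 in Vec, 24.5% ± 2.05 in CCND2wt and 77.1% ± 3.72 in CCND2mut (SD, n = 3).

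Hexokinases Hk2 and Hk3 had the largest log2 fold changes of the 36 tested entries in CCND2wt against Vec and in CCND2mut against CCND2wt. Hk3 (ENSMUSG00000025877, chr13:55005985-55021385, minus strand) stood at 180.4, 111 and 96.9 CPM in Vec, 20.5, 20.5 and 23.4 CPM in CCND2wt and 1039, 1038 and 1445 CPM in CCND2mut. Every CCND2wt library was below every Vec library and every CCND2mut library above. Hk3 fell by 2.59 (SE 0.26, adjusted p = 0.000863) in CCND2wt and rose by 3.18 (SE 0.26, adjusted p = 5.2e-05) in CCND2mut against Vec, 6.03-fold down and 9.07-fold up in edgeR. CCND2mut exceeded CCND2wt 54.7-fold. Hk2, encoding the inducible, mitochondria-binding hexokinase of growing cells, showed the same order at lower levels. Its values (ENSMUSG00000000628, chr6:82725025-82774454) were 31.6, 68.7 and 30.1 CPM in Vec, 3.60, 4.48 and 2.92 CPM in CCND2wt and 177, 297 and 329 CPM in CCND2mut. Hk2 fell by 3.57 (SE 0.41, adjusted p = 0.00164) in CCND2wt and rose by 2.62 (SE 0.38, adjusted p = 0.000741) in CCND2mut against Vec, and the groups did not overlap in any comparison. Between CCND2mut and CCND2wt the fold was 73.0.

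Hk1, the constitutive hexokinase, did not pass in CCND2mut against Vec. It was at 404, 424 and 559 CPM in Vec, 522, 530.2 and 527 CPM in CCND2wt and 250.3, 476 and 270.2 CPM in CCND2mut, with CCND2mut 2 inside the Vec range and CCND2mut 1 and 3 below it. The difference between CCND2mut and Vec was -0.48 (95% interval -1.03 to 0.08, adjusted p = 0.132). Without CCND2mut 2 it was -0.84 and passed (adjusted p = 0.00406). Against CCND2wt every CCND2mut library was lower, and the difference was -0.66 (95% interval -1.22 to -0.11, adjusted p = 0.0522) in edgeR. That difference passed in 4 of 20 alternatives, among them DESeq2 (-0.67, adjusted p = 0.03) and the fit without CCND2mut 2 (-1.05, adjusted p = 0.00171). Besides its sum, the make-up of the family differed between groups. Per length, Hk1 supplied 46.6, 54.4 and 67.6% of hexokinase RNA in the Vec libraries, 90.8, 90.8 and 90.0% in CCND2wt and 8.60, 14.4 and 6.61% in CCND2mut. Hk3 supplied 48.2, 33.0 and 27.1%, 8.26, 8.14 and 9.28% and 82.7, 72.8 and 81.9%. CCND2wt marrow was thus a nearly pure Hk1 profile and CCND2mut marrow a mainly Hk3 profile, with Vec between them. Hk2 took 7.67% ± 4.26, 0.901% ± 0.192 and 11.0% ± 2.13 of the family (SD, n = 3). The summed level per length was 96.7 ± 5.15 CPM per kb in Vec, 68.2 ± 0.697 in CCND2wt and 402.7 ± 70.3 in CCND2mut.

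**Figure D3:**
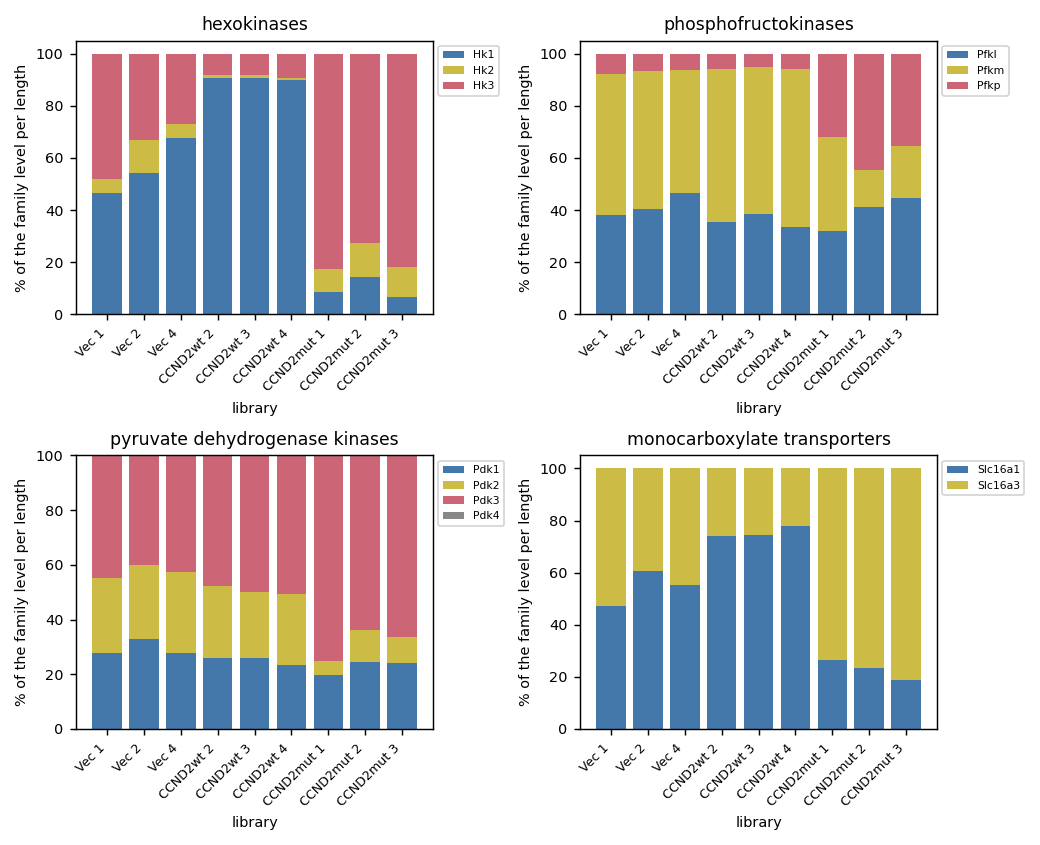
Share of each isozyme in the summed level per length of its family (y axis, percent) in each library (x axis) for hexokinases, phosphofructokinases, pyruvate dehydrogenase kinases and monocarboxylate transporters. Hk1 fills about 90.0% to 90.8% of the hexokinase bar in CCND2wt and 6.61% to 14.4% in CCND2mut, and Pfkp, Pdk3 and Slc16a3 take larger parts of the CCND2mut bars than of any other.

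Phosphofructokinase changed its make-up as well, while its summed level per length overlapped between groups. Pfkp (ENSMUSG00000021196, chr13:6579768-6648777), the platelet-type subunit, stood at 40.6, 40.1 and 42.2 CPM in Vec, 32.7, 29.6 and 30.4 CPM in CCND2wt and 159, 445 and 297 CPM in CCND2mut. Its CCND2mut libraries were all far above the others, and it rose by 2.87 (SE 0.32, adjusted p = 0.000231) against Vec and by 3.28 (SE 0.33, adjusted p = 0.000144) against CCND2wt. Pfkm, the muscle-type subunit, was at 69.6, 79.4 and 79.2 CPM in Vec, 84.7, 79.6 and 80.2 CPM in CCND2wt and 44.2, 34.8 and 41.4 CPM in CCND2mut. It fell in CCND2mut by 0.92 (SE 0.12, adjusted p = 0.000351) against Vec and by 1.02 (SE 0.12, adjusted p = 0.000224) against CCND2wt, with no overlap. Pfkl, the liver-type subunit, had 97.5, 121 and 156 CPM in Vec, 101, 109 and 88.1 CPM in CCND2wt and 78.6, 204 and 187 CPM in CCND2mut, a wide CCND2mut range that holds the Vec range within it. Its difference in CCND2mut against Vec was 0.33 (95% interval -0.43 to 1.09, adjusted p = 0.43), and 0.65 without CCND2mut 1, when it passed (adjusted p = 0.0232). Per length, Pfkm supplied 51.4% ± 3.66 of the family in Vec, 58.7% ± 2.29 in CCND2wt and 23.2% ± 11.3 in CCND2mut, and Pfkp 6.94% ± 0.831, 5.54% ± 0.294 and 37.4% ± 6.53 (SD, n = 3). Pfkl kept 41.6% ± 4.36, 35.7% ± 2.57 and 39.3% ± 6.63, with overlap between all groups. The summed level per length was 44.5 ± 5.85 CPM per kb in Vec, 41.6 ± 1.85 in CCND2wt and 57.9 ± 19.1 in CCND2mut, and it overlapped in all 3 comparisons. A read of Pfkp weighs least in this sum, because its entry has 13401 bases, against 6675 for Pfkl and 3340 for Pfkm. The overlap is therefore stated for levels per length only.

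The PFKFB enzymes make and degrade fructose 2,6-bisphosphate, which activates phosphofructokinase, and PFKFB3 strongly favours making it. Pfkfb3 was at 86.3, 82.1 and 67.6 CPM in Vec, 81.1, 89.5 and 98.5 CPM in CCND2wt and 139, 136 and 119.8 CPM in CCND2mut and rose in CCND2mut by 0.74 (SE 0.13, adjusted p = 0.00164) against Vec. Pfkfb2 was nearly level within groups, at 22.5, 22.5 and 22.8 CPM in Vec, 20.1, 20.8 and 21.6 CPM in CCND2wt and 8.56, 8.88 and 8.24 CPM in CCND2mut. It fell by 1.40 (SE 0.13, adjusted p = 7.6e-05) in CCND2mut against Vec in edgeR. Pfkfb4 had 46.2, 24.0 and 24.3 CPM in Vec, 16.03, 14.96 and 18.1 CPM in CCND2wt and 44.4, 43.1 and 36.3 CPM in CCND2mut, with Vec 1 above all other libraries. Pfkfb4 fell by 0.95 (SE 0.26, adjusted p = 0.0356) in CCND2wt against Vec and was 2.52 times higher in CCND2mut than in CCND2wt. Without Vec 1 it was also higher in CCND2mut than in Vec, by 0.77 (adjusted p = 0.00404), where all libraries gave 0.39 (95% interval -0.19 to 0.96, adjusted p = 0.226). Within the family Pfkfb2 made up 15.9% ± 2.76 per length in Vec, 15.9% ± 0.702 in CCND2wt and 4.37% ± 0.272 in CCND2mut.

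The exact permutation test over the 9 libraries compared the isozyme shares of 9 families between the 3 groups. For hexokinases, phosphofructokinases, PFKFB enzymes, enolases, pyruvate dehydrogenase kinases and monocarboxylate transporters the exact p was 0.00357, the smallest that permuting the libraries allows, with an adjusted p of 0.00536 over the 9 families. Glucose transporters (adjusted p = 0.00918 in the exact test) and aldolases (adjusted p = 0.0201 in the exact test) passed as well, and lactate dehydrogenases did not (exact adjusted p = 0.0536). Without CCND2mut 1 or CCND2mut 2 the aldolases had an exact adjusted p of 0.0603, and without Vec 4 the lactate dehydrogenases had one of 0.0179. The test is one-sided for a large difference between any of the groups. Like the edgeR calls, it takes the closely matched CCND2wt libraries as 3 separate samples. Pairs of groups could not go below an exact p of 0.1 and are given as values only. On the centred log ratio of counts, which weighs minor isozymes as much as major ones, the enolases did not pass (exact adjusted p = 0.196), and the lactate dehydrogenases did (exact adjusted p = 0.0442). Shares do not depend on library scaling.

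**Figure D4:**
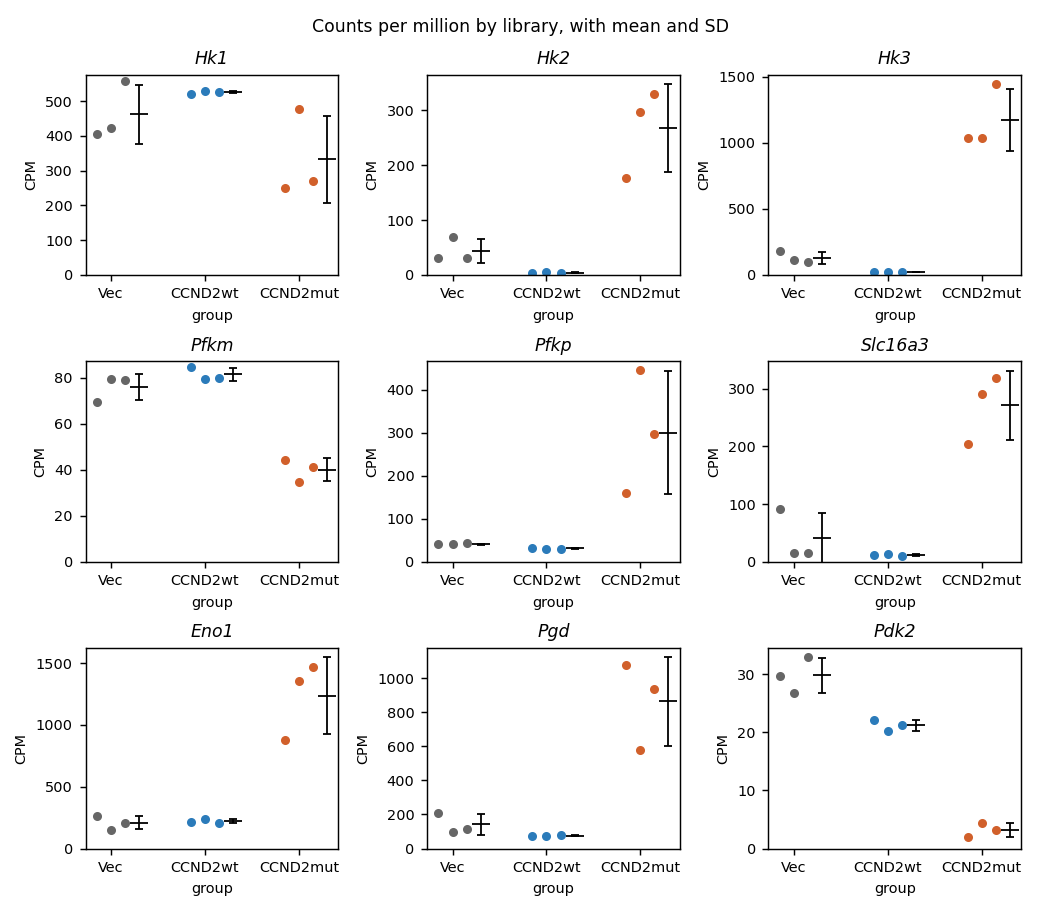
Level in CPM (y axis, starting at 0) of 9 genes in the 3 libraries of each group (x axis), with bars for the mean and SD of each group. Hk2, Hk3, Pfkp, Slc16a3, Eno1 and Pgd are highest in all 3 CCND2mut libraries, Pfkm and Pdk2 are lowest there, and Hk1 overlaps between Vec and CCND2mut.

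Glucose 6-phosphate isomerase, between hexokinase and phosphofructokinase, and aldolase, the step after phosphofructokinase, rose in CCND2mut. Gpi1 was at 435, 336 and 335 CPM in Vec, 323, 330.0 and 305 CPM in CCND2wt and 852, 1108 and 851 CPM in CCND2mut, and rose by 1.35 (SE 0.16, adjusted p = 0.000228) in CCND2mut against Vec. Aldoa (ENSMUSG00000030695, chr7:126795234-126800751), the main aldolase of blood and muscle, was at 345, 308 and 318 CPM in Vec, 203, 227 and 207 CPM in CCND2wt and 655, 1181 and 1125 CPM in CCND2mut. It rose by 1.61 (SE 0.21, adjusted p = 0.000416) in CCND2mut against Vec, 3.05-fold, with all CCND2mut libraries above the rest. In CCND2wt every library was below Vec, at -0.61 (95% interval -1.08 to -0.14, adjusted p = 0.0706), which did not pass, and passed without CCND2mut 1 (-0.61, adjusted p = 0.00643). The second Aldoa entry (ENSMUSG00000114515, chr7:126800790-126809108) starts just beyond the first one on the same strand. It held only 0.905, 0.815 and 1.28 CPM in Vec, 3.86, 2.10 and 3.47 CPM in CCND2wt and 2.61, 2.40 and 2.06 CPM in CCND2mut. It rose in CCND2wt by 1.64 (SE 0.35, adjusted p = 0.0145) and in CCND2mut by 1.23 (SE 0.35, adjusted p = 0.0167) against Vec, the latter not without Vec 2 (1.10, adjusted p = 0.0516). How reads were split between the entries is uncertain. Aldoc, the brain-type aldolase, ranged from 0.77 to 4.78 CPM over the 9 libraries and passed in 0 comparisons.

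Lower glycolysis rose nearly throughout in CCND2mut. Tpi1, the triose phosphate isomerase gene, had 169.6, 176 and 195 CPM in Vec, 249.6, 249 and 247 CPM in CCND2wt and 449, 754 and 770.3 CPM in CCND2mut, and rose by 1.87 (SE 0.20, adjusted p = 0.000161) against Vec. Pgk1 (phosphoglycerate kinase, the first step that yields ATP) had 175, 149 and 169.7 CPM in Vec, 125, 136 and 130.3 CPM in CCND2wt and 387, 554 and 608 CPM in CCND2mut, and rose by 1.65 (SE 0.17, adjusted p = 0.000139). Pgam1 (phosphoglycerate mutase) had 96.7, 65.3 and 89.4 CPM in Vec, 54.4, 58.1 and 58.9 CPM in CCND2wt and 275, 409 and 334 CPM in CCND2mut, and rose by 2.02 (SE 0.19, adjusted p = 8.9e-05). In each of these genes the lowest CCND2mut library was above the highest Vec and CCND2wt library, so the folds of 3.65, 3.13 and 4.05 exceed the spread. CCND2mut 1 was the lowest CCND2mut library for Tpi1, Pgk1 and Pgam1, as it was for Aldoa, Eno1, Pkm, Ldha, Hk2 and Pfkp. Pkm (pyruvate kinase, ENSMUSG00000032294, chr9:59656368-59679375) was at 665, 511 and 593 CPM in Vec, 401, 406 and 389.7 CPM in CCND2wt and 1397, 1763 and 1547 CPM in CCND2mut. Pkm rose by 1.41 (SE 0.14, adjusted p = 0.00011) in CCND2mut and fell by 0.56 (SE 0.14, adjusted p = 0.0237) in CCND2wt against Vec in edgeR. Gene counts do not separate the PKM1 and PKM2 splice forms.

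Enolase RNA was mostly Eno1, the common isozyme, in all groups. Eno1 (ENSMUSG00000063524, chr4:150236721-150248879) was at 259.5, 154 and 209 CPM in Vec, 216, 241 and 208 CPM in CCND2wt and 880.3, 1356 and 1472 CPM in CCND2mut, and rose 5.96-fold in CCND2mut against Vec, by 2.58 (SE 0.25, adjusted p = 0.000104). CCND2wt and Vec overlapped. Eno3, the muscle-type isozyme, was at 11.9, 9.44 and 10.7 CPM in Vec, 7.09, 6.40 and 5.78 CPM in CCND2wt and 12.2, 8.95 and 10.1 CPM in CCND2mut. It fell by 0.73 (SE 0.20, adjusted p = 0.0376) in CCND2wt, while its CCND2mut values lay in and around the Vec range. Eno1 supplied 85.7% ± 1.85 of enolase RNA per length in Vec, 91.2% ± 0.921 in CCND2wt and 96.7% ± 0.873 in CCND2mut, with no overlap between any groups, but the family's test did not pass on the centred log ratio (exact adjusted p = 0.196). Eno2, the neuronal isozyme, was at most 1.43 CPM in Vec and CCND2wt, and 0.304, 15.6 and 4.38 CPM in CCND2mut, so that 1 CCND2mut library was the lowest of all and another the highest. It passed in CCND2mut against Vec, 3.16 (SE 1.06, adjusted p = 0.034), with overlapping groups. Without CCND2mut 2 the value was 1.64 (adjusted p = 0.15), and without any 1 of the Vec or CCND2wt libraries the adjusted p was 0.0532 to 0.0959.

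Gapdh, often used as a reference gene, is uncertain in these counts. It had 33.1, 64.4 and 14.0 CPM in Vec, 36.6, 32.4 and 40.0 CPM in CCND2wt and 373, 73.2 and 54.5 CPM in CCND2mut. CCND2mut 1 alone was far above the rest, and CCND2mut 2 and 3 were near Vec 2. Gapdh passed in CCND2mut against Vec, 2.17 (SE 0.78, adjusted p = 0.0462), but was 0.78 without CCND2mut 1 (adjusted p = 0.247), and did not pass without Vec 1, Vec 4 or any 1 of the CCND2wt libraries (adjusted p = 0.0681 to 0.12). Its mean level per length of 8.99 CPM per kb in Vec is far under the 65.5 and 73.4 CPM per kb of its neighbours in the pathway, Tpi1 and Pgk1. The mouse genome is known to hold many Gapdh pseudogenes, and the 2 that carry its name in the table had 0 to 3 counts per library. Whether reads were lost to such copies was not tested.

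**Figure D5:**
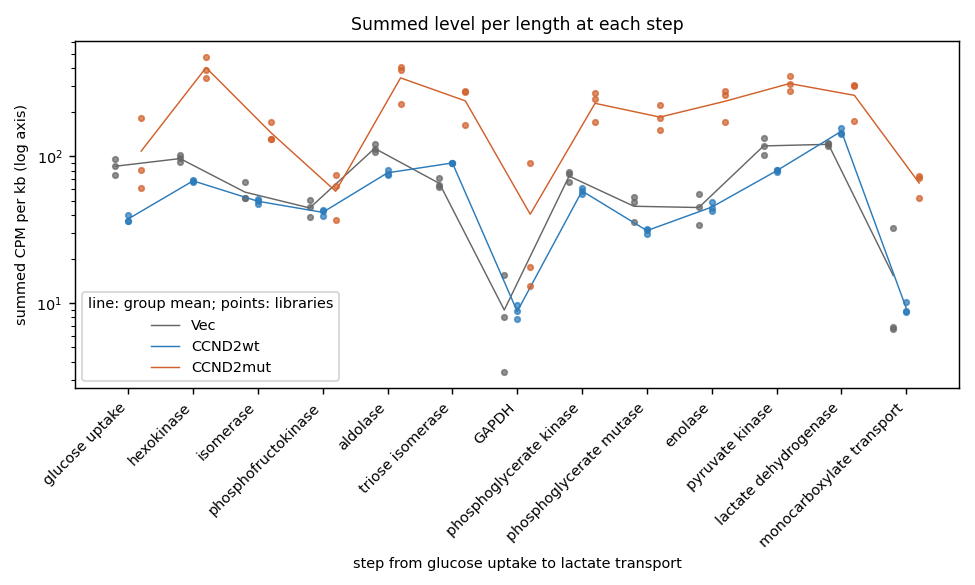
Summed level per length of the isozymes at each step from glucose uptake to lactate export (x axis), in CPM per kb on a log axis, with points for libraries and lines for group means. The CCND2mut line of means runs above the others at all steps shown and is closest to Vec at glucose uptake (1.27 times) and phosphofructokinase (1.30 times). CCND2mut and Vec libraries overlap at these steps and at GAPDH, where all lines dip.

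Along the pathway, the summed level per length in CCND2mut exceeded that in Vec by 2.54 times at the isomerase step, 3.02 at aldolase, 3.65 at triose isomerase, 3.13 at phosphoglycerate kinase, 4.05 at the mutase, 5.29 at enolase and 2.66 at pyruvate kinase. In each of these steps every CCND2mut library was above every Vec library. At glucose uptake (1.27 times), phosphofructokinase (1.30 times) and GAPDH (4.49 times) the libraries overlapped. CCND2mut 1 was below all Vec libraries at uptake (61.0 CPM per kb) and phosphofructokinase (36.8 CPM per kb). The phosphofructokinase sum depends on the division by length, which gives reads of Pfkp the least weight. At uptake CCND2mut 2 and 3 had 183.8 and 81.3 CPM per kb, against 74.8 to 96.2 in Vec. The CCND2wt sums were below all Vec libraries at uptake (0.438 of Vec), hexokinase (0.705), the isomerase (0.866), aldolase (0.681), phosphoglycerate kinase (0.792), the mutase (0.682) and pyruvate kinase (0.677). They were above all Vec libraries at triose isomerase (1.38 times) and lactate dehydrogenase (1.23 times), although neither Tpi1 (adjusted p = 0.124) nor Ldha (adjusted p = 0.309) passed in edgeR. Tpi1 passed without CCND2mut 1 (0.47, adjusted p = 0.0133).

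At the fate of pyruvate, the lactate side rose and the kinases that hold pyruvate out of mitochondria fell. Ldha (ENSMUSG00000063229, chr7:46841475-46855627), the form of lactate dehydrogenase that favours lactate, was at 385, 401 and 406 CPM in Vec, 474, 519 and 480.3 CPM in CCND2wt and 576, 1020.4 and 992 CPM in CCND2mut. It rose by 1.12 (SE 0.20, adjusted p = 0.00206) in CCND2mut against Vec and by 0.81 (SE 0.20, adjusted p = 0.0101) against CCND2wt. The difference from CCND2wt was not called with CCND2wt summed to 1 sample (0.79, adjusted p = 0.185). Ldhb had 53, 9 and 4 counts in Vec, 1, 7 and 2 in CCND2wt and 3, 0 and 2 in CCND2mut, and was not tested. Ldha made up at least 98.3% of lactate dehydrogenase RNA per length in every library.

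Among the 9 families, pyruvate dehydrogenase kinases were the one in which every tested member fell in CCND2mut. Pdk1 (ENSMUSG00000006494, chr2:71873224-71903858), a known target of hypoxia signalling, stood at 74.0, 81.3 and 75.9 CPM in Vec, 54.1, 53.4 and 47.1 CPM in CCND2wt and 19.3, 22.2 and 20.4 CPM in CCND2mut. It fell by 1.90 (SE 0.11, adjusted p = 1.4e-05) in CCND2mut and by 0.58 (SE 0.10, adjusted p = 0.00809) in CCND2wt against Vec, and all 3 groups were apart. Pdk2, the widely expressed kinase, was at 29.7, 26.8 and 33.0 CPM in Vec, 22.1, 20.3 and 21.3 CPM in CCND2wt and 2.06, 4.41 and 3.25 CPM in CCND2mut. It fell by 3.20 (SE 0.26, adjusted p = 5.2e-05), or 9.20-fold, in CCND2mut, and the -0.49 (95% interval -1.03 to 0.05, adjusted p = 0.174) of CCND2wt did not pass. Pdk3 was at 39.0, 32.5 and 38.4 CPM in Vec, 32.7, 33.9 and 33.5 CPM in CCND2wt and 24.3, 19.2 and 18.6 CPM in CCND2mut, and fell by 0.82 (SE 0.14, adjusted p = 0.00159) in CCND2mut. Pdk4 had 1 count, in Vec 1. As the least reduced kinase, Pdk3 made up 68.5% ± 5.95 of kinase RNA per length in CCND2mut against 42.4% ± 2.24 in Vec and 49.4% ± 1.43 in CCND2wt. The summed kinase level was 33.6 ± 1.84 CPM per kb in Vec, 26.4 ± 0.464 in CCND2wt and 11.8 ± 0.865 in CCND2mut, with no overlap.

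The subunits of the pyruvate dehydrogenase complex itself differed little. Dlat, the acetyltransferase core, was at 35.0, 31.6 and 41.3 CPM in Vec, 41.9, 41.1 and 43.6 CPM in CCND2wt and 66.6, 51.3 and 65.2 CPM in CCND2mut, and rose by 0.76 (SE 0.14, adjusted p = 0.00236) in CCND2mut against Vec. Pdhb, a subunit of the first enzyme, had 108, 129 and 109 CPM in Vec, 145, 157 and 147 CPM in CCND2wt and 145, 136 and 134 CPM in CCND2mut. It rose in CCND2wt by 0.38 (SE 0.10, adjusted p = 0.037), and the 0.27 (95% interval 0.03 to 0.50, adjusted p = 0.0571) of CCND2mut against Vec passed only without Vec 2 (0.34, adjusted p = 0.0164) among the fits that left out 1 library. Pdha1, its partner subunit, had 97.4, 118 and 106 CPM in Vec, 102, 104 and 101 CPM in CCND2wt and 156, 133 and 113 CPM in CCND2mut. Its CCND2mut difference was 0.33 (95% interval 0.02 to 0.63, adjusted p = 0.0672) against Vec, and 0.39 (SE 0.13, adjusted p = 0.0381) against CCND2wt. The first passed without Vec 2 (0.39, adjusted p = 0.0473) or CCND2mut 3 (0.44, adjusted p = 0.0233), and the second did not pass in 6 of the 9 fits that left out 1 library (adjusted p = 0.059 to 0.116, with 0.107 without CCND2mut 1).

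All 4 pentose phosphate genes rose in CCND2mut. Pgd (ENSMUSG00000028961, chr4:149149991-149166771), the dehydrogenase of 6-phosphogluconate and a source of NADPH, was at 210.5, 99.3 and 114 CPM in Vec, 72.4, 75.9 and 80.4 CPM in CCND2wt and 1078, 576 and 936 CPM in CCND2mut. It rose 6.12-fold against Vec, by 2.61 (SE 0.33, adjusted p = 0.000385), and 11.3-fold against CCND2wt. G6pdx, the entry enzyme, was at 123, 36.9 and 44.7 CPM in Vec, 35.2, 32.0 and 36.0 CPM in CCND2wt and 209, 126 and 203 CPM in CCND2mut. Its lowest CCND2mut value was just above Vec 1, and the rise of 1.39 (SE 0.43, adjusted p = 0.0256) against Vec did not pass in 4 of the 9 fits that left out 1 library, those without Vec 2, Vec 4, CCND2mut 1 or CCND2mut 3 (adjusted p = 0.0658 to 0.0815). Taldo1 (transaldolase) was at 227, 86.0 and 109 CPM in Vec, 94.5, 98.2 and 102 CPM in CCND2wt and 612, 479 and 485 CPM in CCND2mut, and rose by 1.90 (SE 0.33, adjusted p = 0.00181). Tkt (transketolase) was at 568, 398 and 419 CPM in Vec, 320.5, 324 and 309 CPM in CCND2wt and 1035, 638 and 834 CPM in CCND2mut, and rose by 0.86 (SE 0.20, adjusted p = 0.00684). In all 4 genes Vec 1 was the highest Vec library, as it was for neutrophil markers, and the part of that in these levels was not tested. Without Vec 1 the G6pdx difference was 2.13 (adjusted p = 0.000255), 4.38-fold in place of 2.63-fold. With Vec 1 and CCND2mut 1 both left out, 53.4% of all genes were called in CCND2mut against Vec. Among the members 27 were called, 22 higher and 5 lower. Of the 26 called with all libraries 24 were among them, Gapdh and the second Aldoa entry were not, and Pfkl, Pfkfb4 and Slc16a1 were added. In CCND2wt against Vec the log2 fold changes of the 4 genes ran from -0.99 to -0.52, and 0 of 4 passed in edgeR. For 3 of them the unadjusted p was under 0.05 in edgeR, as it was for 5553 of all 15660 tested genes. DESeq2 called 2 of them, Pgd (-0.89, adjusted p = 0.0297) and Tkt (-0.53, adjusted p = 0.0491), and limma-voom called 0.

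Other lists of carbohydrate metabolism are read against all tested genes, of which 24.9% were higher and 26.9% lower in CCND2mut against Vec. Of 8 further pentose phosphate genes tested, 6 rose (75%) and 0 fell, among them H6pd (1.14 (SE 0.13, adjusted p = 0.000235)), Prps1 (0.96) and Rpia (1.13). Of 22 genes of the tricarboxylic acid cycle, 13 rose (59.1%) and 2 fell (9.09%), with Mdh2 at 0.92 (SE 0.10, adjusted p = 0.000144) and Cs, which makes citrate, at 1.07. Of 16 genes of gluconeogenesis and glycogen, 11 rose (68.8%) and 2 fell (12.5%). These 3 lists held a larger share of higher genes than the table as a whole, as the members did (58.3%). Fbp1, which runs the phosphofructokinase step backwards, stood at 3.86, 2.51 and 4.30 CPM in Vec, 0.899, 0.85 and 1.65 CPM in CCND2wt and 329, 226 and 110.0 CPM in CCND2mut, and rose by 5.96 (SE 0.48, adjusted p = 6.0e-05). It fell by 1.65 (SE 0.48, adjusted p = 0.0459) in CCND2wt. Of 10 genes for pyruvate import and the rest of its dehydrogenase complex, 4 rose (40%) and 2 fell (20%). Mpc1, a subunit of the mitochondrial pyruvate carrier, rose by 1.35 (SE 0.26, adjusted p = 0.00267), and Pdp2, a phosphatase that opposes the kinases, fell by 1.30 (SE 0.19, adjusted p = 0.00077).

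Isozymes and transporters outside the 37 names were split evenly, with 6 of 23 tested rising (26.1%) and 6 falling (26.1%) in CCND2mut against Vec, near the shares over all genes. Slc16a7, a monocarboxylate transporter of high affinity, went from 7.54, 6.25 and 8.08 CPM in Vec to 0.243, 0.0668 and 0.0664 CPM in CCND2mut, and fell by 5.75 (SE 0.43, adjusted p = 3.6e-05). The glucose transporter gene Slc2a6 fell by 2.42 (SE 0.33, adjusted p = 0.000478) in CCND2mut and by 1.82 (SE 0.32, adjusted p = 0.00697) in CCND2wt. In CCND2wt against Vec, the counts of these 5 lists that rose and fell were 2 and 0 (pentose phosphate), 3 and 0 (tricarboxylic acid cycle), 1 and 2 (gluconeogenesis and glycogen), 1 and 0 (pyruvate import) and 1 and 2 (other isozymes), where 9.71% of all genes were higher and 9.05% lower.

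Of 18 regulators of glycolytic genes tested, 61.1% were called in CCND2mut against Vec, near the 51.8% of all genes, with 8 higher (44.4%) and 3 lower (16.7%). Hif1a, the oxygen-regulated transcription factor, was at 73.9, 76.2 and 91.3 CPM in Vec, 119.6, 129 and 115 CPM in CCND2wt and 192, 258 and 275 CPM in CCND2mut. It rose by 1.59 (SE 0.16, adjusted p = 0.000112) in CCND2mut and by 0.59 (SE 0.15, adjusted p = 0.0299) in CCND2wt against Vec, and all 3 groups were apart. Its partner Arnt fell by 0.91 (SE 0.14, adjusted p = 0.000904) in CCND2mut. Myc, another activator of these genes, fell by 1.10 (SE 0.26, adjusted p = 0.0219) in CCND2wt. Over the 18 regulators, 2 rose (11.1%) and 4 fell (22.2%) in CCND2wt, beside 9.71% and 9.05% of all genes. Of 18 hypoxia-induced genes outside glycolysis, 10 rose (55.6%) and 3 fell (16.7%) in CCND2mut, with Plin2 at 3.83 (SE 0.31, adjusted p = 5.6e-05) and Fam162a at 2.11. In CCND2wt 0 rose and 2 fell, Vegfa (-2.94 (SE 0.53, adjusted p = 0.00893)) and Bhlhe40 (-1.67). Pdk1 fell in CCND2mut beside these genes.

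Cell-type markers were counted in the same 3 comparisons. In CCND2mut against Vec, where 24.9% of all genes were higher and 26.9% lower, 3 of 10 tested monocyte and macrophage markers (30%) and 2 of 12 neutrophil markers (16.7%) rose and 0 fell, shares near or under that of all genes. The median log2 fold change was -0.25 over the monocyte and 0.45 over the neutrophil markers. In the same comparison 10 of 12 erythroid, 11 of 11 B cell and 10 of 12 stem and progenitor markers fell. The groups were apart for 0 erythroid, 10 B cell and 10 stem and progenitor markers, beside 56.7% of all genes. The erythroid sum was 17286, 145 and 3861 CPM in Vec and 304, 35.8 and 89.9 CPM in CCND2mut. Of 12 markers of dividing cells, 11 rose and 1 fell. Of 11 mast cell markers 4 rose and 1 fell, and of 9 megakaryocyte markers 2 rose and 4 fell. In CCND2wt against Vec, 6 of 12 markers of dividing cells and 5 of 11 mast cell markers rose, and 4 of 12 neutrophil, 4 of 10 monocyte and 5 of 11 B cell markers fell, beside 9.71% of all genes higher and 9.05% lower. Between CCND2mut and CCND2wt, where 23 glycolytic members and 23.2% of all genes were higher, 8 of 12 neutrophil and 4 of 10 monocyte markers rose. Beside 23.8% of all genes, 9 of 12 stem and progenitor, 5 of 9 megakaryocyte and 4 of 11 mast cell markers fell. A further 2 of the 9 megakaryocyte markers rose. Of the 12 markers of dividing cells 1 rose and 0 fell there. The summed neutrophil markers were 8715, 806 and 853 CPM in Vec, 388, 324 and 341 CPM in CCND2wt and 6890, 1678 and 1799 CPM in CCND2mut. The part of neutrophil and monocyte content in the levels of these genes was not tested.

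Some members lie across other genes, and the strand setting of the counting is not given, so reads of opposite strands cannot be told apart. Unc5a overlaps Hk3 on the other strand and had 891 to 1138 counts in Vec, 1496 to 1815 in CCND2wt and 150 to 233 in CCND2mut, the reverse order of Hk3. Map3k15 overlaps Pdha1 on the other strand, with 16 to 87, 80 to 93 and 232 to 888 counts, highest in CCND2mut 1 as Pdha1 is. Senp1 with Pfkm, Pitrm1 with Pfkp, Yod1 with Pfkfb2, Iffo1 with Gapdh and Ikbkg with G6pdx overlap in the same manner. Eno1b, a copy of Eno1, had 43 to 97 counts in Vec, 81 to 85 in CCND2wt and 274 to 466 in CCND2mut, the same order as Eno1, and reads of the pair may have been divided between them. Values of these members are uncertain to that extent.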

How the data were processed

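RNA of bone marrow cells was sequenced in 9 libraries, 3 for each of CCND2mut, CCND2wt and Vec. Per the labels' protocols, TRIzol was used to isolate total RNA and the NEBNext Ultra kit to make the libraries. The deposited table holds raw counts of reads for each gene, with gene lengths. Per the submitters' processing notes, the tools were CASAVA 1.8, fastp, HISAT2 2.0.5 on mm10, featureCounts 1.5.0-p3 and DESeq2 1.20.0. The sources used here do not give the annotation release or the strand setting. Columns were joined to samples by title, and 0 count columns were left unused.

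Genes passing filterByExpr (15660 of 54532) were scaled by TMM. One robust quasi-likelihood model of all 9 libraries was fitted in edgeR 4.0.16 under R 4.3.3, with limma 3.58.1, 6 residual degrees of freedom and a median biological coefficient of variation of 0.246. P-values were adjusted by the Benjamini-Hochberg method over all tested genes, with a threshold of 0.05, and intervals are 95%. CPM used the TMM-scaled totals of the tested genes, and levels were compared between genes only after division by gene length (CPM per kb). Isozyme shares were tested by exact permutation of the libraries over the 3 groups. The gene test was tested on simulated counts. Of genes changed 2-fold it recovered 16% to 25.5% in the 3 comparisons, and of genes changed 4-fold 62.6% to 63.6%. Only 98 to 100 genes were changed at each fold, among 15285 to 15315 tested. In the data 18.8% to 51.8% of all genes passed, so the adjustment was stricter in the simulation. These shares therefore do not measure the recovery in the data. A member that did not pass may still differ.

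Every member is accounted for. Members past the threshold in any comparison, and all hexokinases and phosphofructokinases, are given for each library, and up to 3 genes with the smallest adjusted p in a comparison could be named from each further list. The members and lists were chosen with earlier results of these data known. Alternatives were RLE scaling, DESeq2 1.42.0, limma-voom, 2 other filters, 2-group fits, the replicate number as a term, dropping the genes of haemoglobin, immunoglobulins and mitochondria, a required fold above 1.5, libraries left out, and CCND2wt taken as 1 sample.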

Additional observations from a re-analysis of the deposited data

How the results depend on the processing

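Counts of members called in CCND2mut against Vec stayed within 1.5 times of the reported 26 under every alternative run, and in CCND2mut against CCND2wt under all but 1: with the CCND2wt libraries summed to 1 sample, 16 passed in place of 28, 12 of them higher in place of 23. The counts of CCND2wt against Vec (9, with 2 higher and 7 lower) moved under many. The share of all genes called, 18.8% in the main fit, moved as well. Leaving out 1 library gave 2 to 12 in all, 0 to 3 higher and 2 to 9 lower, with 6.21% to 23.4% of all genes called. With no filter (7.7% of all genes), and with at least 5 CPM required in at least 3 libraries (22.4%), 1 was higher. A required fold above 1.5 gave 2, 0 higher and 2 lower (6.56% of all genes). Fitting only these 2 groups gave 17, 4 higher and 13 lower (29.1% of all genes), and DESeq2 gave 14, 12 of them lower (27.7%). With CCND2wt summed to 1 sample, the median log2 fold change of the members was -0.31, beside -0.33 with all libraries. That fit cannot decide which calls would stand. Without Vec 1 and CCND2mut 1, 4 members were called higher, and 27.8% of all genes were called. The causes were not tested, beyond fewer samples or genes in a fit. Replicate numbers (1, 2 and 4 in Vec, 2, 3 and 4 in CCND2wt, 1, 2 and 3 in CCND2mut) share only 2 numbers per comparison, and same-numbered libraries deviated from their group means with a correlation over genes of -0.0727 to 0.187, so they were not taken as pairs. With a replicate block, 4 members passed in CCND2wt against Vec (1 higher, 3 lower), 24 in CCND2mut against Vec and 26 in CCND2mut against CCND2wt. Over all genes 10.4%, 43.1% and 38.6% passed, in the same order.

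For isozyme shares, the exact adjusted p of the enolases was 0.196 on the centred log ratio of counts, and that of the lactate dehydrogenases 0.0442. Leaving out 1 library gave 0.0121 to 0.0603 for aldolases and 0.0179 to 0.318 for lactate dehydrogenases.

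Single values that changed sign were small or rested on 1 library. In CCND2wt against Vec, Gapdh was 0.024 without the filter, 0.72 with a replicate block and 0.23 in limma-voom, and ran from -0.42 to 0.65 over the fits that left out 1 library. Slc16a1 was 0.39 with the block, 0.14 in limma-voom and 0.86 without Vec 1 and CCND2mut 1, and ran from -0.50 to 0.86. Taldo1 was 0.036 without Vec 1 and CCND2mut 1, and ran from -0.75 to 0.036. Eno1 ran from -0.058 to 0.32, Pdha1 from -0.10 to 0.034 and Slc2a1 from -0.29 to 0.35. In CCND2mut against Vec, Slc2a3 was -0.029 in limma-voom and ran from -0.53 to 0.44. Aldoc was 0.28 without Vec 1 and CCND2mut 1, and ran from -0.90 to 0.12. Eno3 ran from -0.17 to 0.051. Among the alternatives run, 0 values of CCND2mut against CCND2wt changed sign. Depth limits Ldhb, Pdk4, Eno2, Aldoc and the second Aldoa entry, which had few counts.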
